A study of Mus musculus with 4 samples.

Results

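Trophoblast is the lineage of the blastocyst's outer wall, the trophectoderm, which goes on to form the placenta, and 9 genes known for directing or marking it were followed by symbol in bulk RNA of mouse embryonic stem cells, among 53379 genes in all. The members were *Cdx2*, *Elf5*, *Elf3*, *Gata2*, *Gata3*, *Tfap2a*, *Tfap2c*, *Hand1* and *Plet1*. All but *Plet1* encode transcription factors, whereas *Plet1* encodes a glycoprotein of the cell surface that marks early trophoblast. The cells were DKO741, a *Terc*-/- line recovered after both copies of the telomerase RNA gene had been targeted in E14 embryonic stem cells, so that every library carried the same knock-out and no library with intact *Terc* was part of the comparison. RNA was taken at population doubling 100 (PD100), before the cells turned to alternative lengthening of telomeres (ALT), a recombination-based upkeep of chromosome ends, and at population doubling 800 (PD800), when survivors of the telomere crisis were growing on ALT. There were 2 libraries of each stage from this single line, grown without feeder cells for the RNA. The study's methods speak of biological duplicates, but nothing says whether the libraries of a stage came from separate cultures, so the p-values below measure only the spread between these libraries, which may be technical. *Terc* itself gave 1 count, in PD100 replicate 1, and was at 0 elsewhere.

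In the embryo, the cells that will become trophectoderm are set apart when the coactivator YAP stays in the nucleus of outer cells and works there with the DNA-binding protein TEAD4, while in inner cells the Hippo kinases LATS1 and LATS2, with the scaffold protein angiomotin (AMOT), hold YAP in the cytoplasm. CDX2 and GATA3 act downstream of TEAD4, and CDX2 opposes the pluripotency factor OCT4, encoded by *Pou5f1*. ELF5, EOMES and TFAP2C sustain the trophoblast stem cell, whereas HAND1 drives its differentiation into giant cells. Embryonic stem cells normally keep most of these genes at a low level.

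Values are expected counts, RSEM's estimate of the reads belonging to a gene, or CPM, those counts scaled to the library's size with TMM factors. Levels of different genes are compared as TPM, which also takes transcript length into account. The libraries held totals of 38492149 and 32454121 expected counts at PD100 (replicates 1 and 2) and of 37460820 and 33362106 at PD800. At these depths 3 counts, taken as the floor of detection, corresponded to 0.0743 to 0.0933 CPM, a limit that covers counting error only. A gene was called when edgeR's adjusted p was under 0.01 and its fold change exceeded 2, and log2 fold changes are PD800 over PD100 with their standard error (SE).

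Of the 9 members, 7 passed the expression filter and were tested, and *Cdx2*, *Hand1* and *Plet1* were called lower at PD800. That makes 3 of 7 tested members, against 8.81% of all 19148 tested genes called lower. The members were chosen with earlier results of these data known, so the shares here describe them and do not test them as a set. None of the 7 was called higher by edgeR, by DESeq2 or by limma on TPM, against 6.28% of all tested genes in the edgeR test, and at an unadjusted edgeR p under 0.05, 1 member lay higher and 5 lower, beside 26.4% and 27% of all tested genes. The median log2 fold change of the tested members was -1.01, beside 0.01 for all tested genes. Each tested member lay above the filter's level in both stages, so that none entered the test through PD100 alone. In bulk RNA, fewer cells carrying a transcript and less of it in each cell cannot be told apart.

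*Hand1*, a basic helix-loop-helix factor of giant cells, lies on the reverse strand at chr11:57828705-57832818 of GRCm38. Its expected counts were 193 and 151 at PD100 and 28 and 14 at PD800. In CPM these were 4.78 and 4.52 at PD100, and 0.778 and 0.435 at PD800. Each PD100 library was thus far above each PD800 library, and the PD800 libraries stood above the floor. The log2 fold change was -2.92 (SE 0.28), a 7.55-fold lower level, with an adjusted p of 0.000579 in edgeR. *Hand1* had the lowest log2 fold change among the tested members. Its mean TPM was 2.01 ± 0.184 (SD, n = 2) at PD100 and 0.23 ± 0.099 at PD800, so that it stood above *Gata2* by TPM at PD100 and below it at PD800.

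*Cdx2*, the homeobox gene that specifies trophectoderm, lies on the reverse strand at chr5:147300805-147307270, with 1 annotated transcript. It had 55 and 37 expected counts at PD100 and 15 and 16 at PD800. These corresponded to 1.36 and 1.11 CPM at PD100, and to 0.417 and 0.498 CPM at PD800. The stages did not overlap, although all 4 libraries held few reads of the gene. The log2 fold change was -1.44 (SE 0.28), 2.70-fold lower, with an adjusted p of 0.00843 in edgeR, close to the threshold. The call was lost in 6 of 11 alternative analyses, while the direction held in all 11. DESeq2 gave an adjusted p of 0.0345, within a range of 9.33e-05 to 0.0564 over the 11, and the call was also lost without PD100 replicate 1 (edgeR adjusted p of 0.0136), without PD800 replicate 1 (0.0564) and without PD800 replicate 2 (0.0312).

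*Plet1* lies on the forward strand at chr9:50494525-50505482. Its expected counts were 337.95 and 270 at PD100 and 114 and 101 at PD800. In CPM, the PD100 libraries stood at 8.36 and 8.08 and the PD800 libraries at 3.17 and 3.14. The replicates of a stage were nearly equal on this scale and the stages were well apart. The log2 fold change was -1.38 (SE 0.13), 2.61-fold lower, with an edgeR adjusted p of 0.000505. *Plet1os*, an antisense RNA annotated across the whole gene, had at most 2.05 expected counts in any library.

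**Figure D1:**
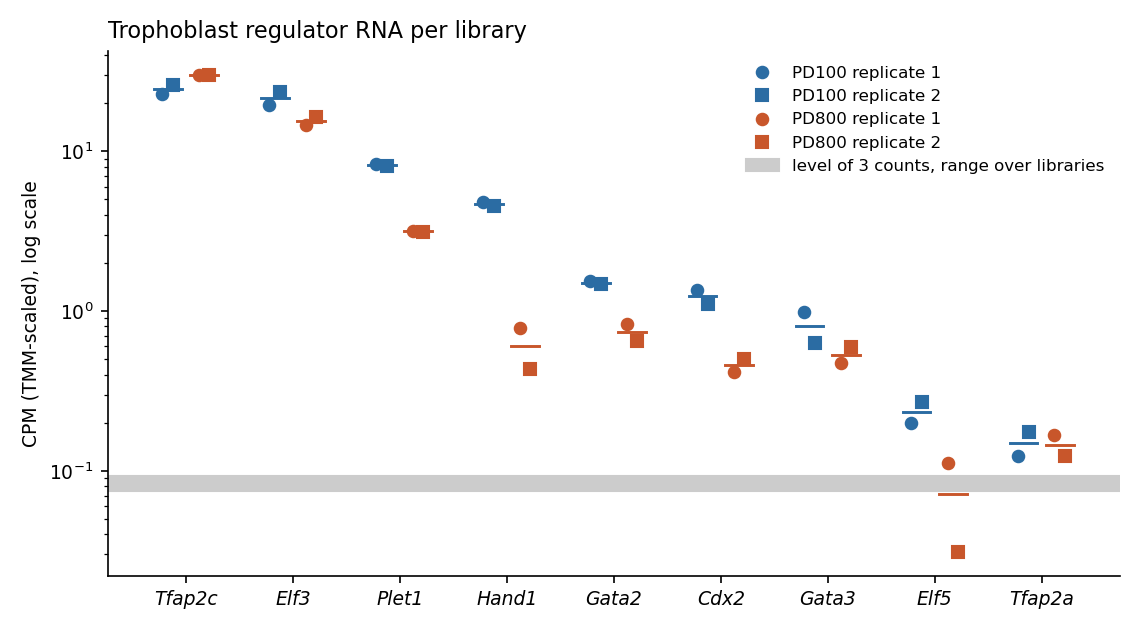
CPM of the 9 members on a log axis, with 1 point per library (circles for replicate 1, squares for replicate 2), a short bar for the mean of each stage, and a grey band for the level of 3 counts. *Hand1*, *Cdx2* and *Plet1* show PD800 points well under the PD100 points, *Tfap2c* lies slightly higher at PD800, and *Elf5* at PD800 and *Tfap2a* sit close to the band.

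The GATA factors GATA2 and GATA3, zinc finger proteins that act in trophoblast stem cells and giant cells, were measured at low levels. *Gata2* (chr6:88193891-88207032) had 62 and 49 expected counts at PD100 and 30 and 21 at PD800. *Gata3* (chr2:9857078-9890034) had 40 and 21 at PD100 and 17 and 19 at PD800. Neither gene overlapped between the stages in CPM, but for *Gata3* the gap between the PD100 libraries (0.99 and 0.629 CPM) was wider than the gap from the lower of them to the higher PD800 library (0.591 CPM). *Gata2* had a log2 fold change of -1.01 (SE 0.25), with an edgeR adjusted p of 0.0187, and missed the call, which it passed with no expression filter (0.0026, the lowest of 11 alternatives that reached 0.126) and with the replicate block (0.00817). *Gata3* had one of -0.62 (SE 0.35), with an edgeR adjusted p of 0.193. The log2 fold change of *Gata3* was -0.24 without PD100 replicate 1, -0.92 without PD100 replicate 2 and -0.10 on log2(TPM + 1), so a difference was not established at this depth.

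The mean transcript length that RSEM assigned to *Gata2*, a weighted mean over transcripts (GENCODE M21 annotates 5), was 2329 and 1829 bases at PD100 and 1806 and 1252 bases at PD800. For *Gata2* the stages therefore lay closer in TPM, at 0.55 and 0.62 against 0.33 and 0.36, than in CPM, at 1.53 and 1.47 against 0.834 and 0.653. The *Cdx2* and *Gata3* lengths were equal in the 4 libraries, at 2261 and 3215 bases. Whether the mix of *Gata2* transcripts differed between the stages was not tested.

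ELF3 and ELF5 belong to the ETS family, with a role for ELF5 in keeping trophoblast stem cells and for ELF3 in epithelial differentiation. *Elf3* (chr1:135253575-135258568) was among the more abundant members, with 19.4 and 23.5 CPM at PD100 and 14.6 and 16.4 CPM at PD800. The stages did not overlap, and the log2 fold change was -0.47 (SE 0.12) with an edgeR adjusted p of 0.0257, short of the call. An antisense gene, *Gm26642*, overlaps *Elf3*, and had 41.2 and 38.24 expected counts at PD100 and 23.02 and 19.05 at PD800, few beside the 782.88 and 785.7 and then 524.83 and 528.88 of *Elf3*. *Elf5* (chr2:103411688-103450989) failed the filter, with 8 and 9 expected counts at PD100 and 4 and 1 at PD800. Its summed count was 17 at PD100 (95% exact Poisson interval 9.9 to 27.2) and 5 at PD800 (1.62 to 11.7). In the edgeR fit with no expression filter *Elf5* had a log2 fold change of -1.62 with an adjusted p of 0.116, so a difference was not established at this depth.

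The AP-2 genes *Tfap2a* and *Tfap2c* were far apart in level. *Tfap2c* (chr2:172549593-172558622), which acts in trophoblast, in germ cells and in pluripotent cells, had 22.9 and 25.8 CPM at PD100 and 30.2 and 29.8 CPM at PD800. It was the member with a higher level in both PD800 libraries, with a log2 fold change of 0.30 (SE 0.09) and an edgeR adjusted p of 0.0362, and was not called. On log2(TPM + 1) the difference was 0.058 and on log2(TPM + 0.1) 0.065, with adjusted p of 0.682 and 0.67. *Tfap2a* (chr13:40715302-40738376) failed the filter, with expected counts of 5 and 5.82 at PD100 and of 6 and 4 at PD800. The *Tfap2a* libraries of the stages overlapped, and its summed counts were 11 (95% exact Poisson interval 5.49 to 19.7) and 10 (4.8 to 18.4), with an edgeR adjusted p of 0.982 in the fit with no expression filter. An antisense gene within *Tfap2a*, *AC123834.2*, had similarly few expected counts, 7 and 1.18 at PD100 and 2 and 2 at PD800.

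Counted without a threshold, 6 of the 7 tested members were lower in both PD800 libraries than in both PD100 libraries, and 1 was higher in both. Among all tested genes these shares were 36.3% lower and 37.4% higher. Of the untested members, *Elf5* was also lower in both PD800 libraries.

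By TPM, *Elf3* led the members at PD100, with a mean of 8.63, followed by *Tfap2c* (6.77), *Plet1* (3.99), *Hand1* (2.01), *Gata2* (0.585), *Cdx2* (0.44), *Gata3* (0.195), *Elf5* (0.155) and *Tfap2a* (0.045). At PD800 *Tfap2c* stood first, with 7.3 and 6.87 TPM, above *Elf3* with 5.44 and 6.01. In that order, neighbours overlapped between libraries in a single case, *Gata3* and *Elf5* at PD100. Summed over the 9 members, TPM was 22.9 and 22.7 at PD100 and 15.1 and 15.05 at PD800. The members took up little of the RNA. In mean TPM over both stages, *Elf3* lay above 66.6% of the tested genes and *Plet1* above 49.3%. On that mean *Hand1* lay above 36.8% and *Cdx2* above 15.5%. Such a place need not hold at either stage, since the mean TPM of *Hand1* was 2.01 at PD100 and 0.23 at PD800.

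The labelled cell type was set against its markers. All 12 embryonic stem cell markers passed the filter, and their summed TPM was 1561 and 1859 at PD100 and 2264 and 2304 at PD800, led by *Dppa5a* (log2 fold change 0.54, SE 0.27, not called, but 1.01 and called without PD100 replicate 2). *Pou5f1* stood at 305.5 and 295.7 TPM at PD100 and at 325.4 and 324.6 at PD800. In that list 5 genes were called higher and none lower (edgeR), among them *Nanog* (log2 fold change 2.32), *Klf4* (2.84), *Fgf4* (1.66) and *Tfcp2l1* (1.22, but 0.93 and 0.97 on the 2 TPM scales, where it was not called). *Pou5f1* was thus far above every member at both stages, whereas *Klf4* at PD100, with 5.67 and 4.5 TPM, lay below *Elf3* and *Tfap2c*.

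Genes that act upstream of *Cdx2*, whether with YAP or against it, were lower or uncalled. None of the 12 TEAD, YAP and Hippo genes was called higher and 4 were called lower, with a median log2 fold change of -0.45. Because the list pools both kinds, that median gives no direction for the input to *Cdx2*. AMOT and LATS2, as set out above, hold YAP back, whereas TEAD4 works with it. *Amot* had 1698 and 1288 expected counts at PD100 and 199 and 178 at PD800, a log2 fold change of -2.86 (SE 0.09, edgeR adjusted p of 3.86e-05). The kinase gene *Lats2* (-1.79), the angiomotin relative *Amotl2* (-1.33) and *Tead3* (-1.38) were the others called lower, *Tead3* no longer without PD800 replicate 2 (edgeR adjusted p of 0.0113) or with limma on either TPM scale (0.0167 and 0.0243). *Tead4*, with 3.91 and 3.17 TPM at PD100 and 2.96 and 2.68 at PD800, and *Yap1* were not called, at log2 fold changes of -0.12 (SE 0.11) and 0.11 (SE 0.08), the latter negative on the TPM scale. *Nf2*, a Hippo activator, had a log2 fold change of 0.17, which turned negative on the TPM scale. It had the highest mean TPM of the list over both stages. At PD100 its mean of 23.9 lay below those of *Amotl2* (31.77) and *Tead2* (24.32).

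Unlike *Cdx2*, some other factors of the trophoblast stem cell were called higher. Of 12 such genes 3 were called higher and none lower, with a median log2 fold change of 0.62. *Eomes*, a T-box gene of trophoblast stem cells that also marks the primitive streak, had 91 and 67 expected counts at PD100 and 335 and 242 at PD800. Its log2 fold change was 1.98 (SE 0.17), with an edgeR adjusted p of 0.000414, and on log2(TPM + 1) it was 0.81 and not called. *Sox21* (2.36) and *Esrrb* (2.06) were the others. The list shares *Esrrb* and *Sox2* with the embryonic stem cell markers, and several of its genes are active in pluripotent cells too.

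Factors of trophoblast differentiation, the company of *Hand1*, were lower or uncalled. Among 12 listed and 11 tested genes 5 were called lower and none higher, with a median log2 fold change of -1.00. *Peg10*, an imprinted gene needed for the placenta, stood at 78.8 and 65.1 TPM at PD100 and at 12.4 and 11.6 at PD800, a log2 fold change of -2.34 (SE 0.09). *Cited1* (-2.80), *Msx2* (-1.41), *Dlx3* (-1.90) and *Ascl2* (-1.39) were the other called genes. Without PD800 replicate 1, 2 genes of the list were called, and the edgeR adjusted p was 0.0336 for *Msx2*, 0.0323 for *Dlx3* and 0.0111 for *Ascl2*, while that of *Dlx3* was 0.0106 without PD800 replicate 2. These 3 calls were also lost with limma on log2(TPM + 1), and those of *Msx2* and *Dlx3* on log2(TPM + 0.1). Most products of differentiated trophoblast were at or near 0 in both stages: of 15 such genes 5 had no count in any library and 12 had at most 3 in every library, among them the spongiotrophoblast marker *Tpbpa* and the placental lactogen gene *Prl3d1*. *Flt1*, a receptor for vascular endothelial growth factor that other cells express as well, was the tested exception, with 867 and 704 expected counts at PD100 and 34 and 27 at PD800 (log2 fold change -4.57, SE 0.12, edgeR adjusted p of 3.03e-05).

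Epithelial genes of the trophectoderm included larger changes than any member's. Of 13 genes 6 were called lower and 1 higher, with a median log2 fold change of -0.99. The keratin genes *Krt18* and *Krt19*, which other epithelia share, had log2 fold changes of -5.02 (SE 0.11) and -5.43 (SE 0.18). *Krt18* fell from 186.2 and 190.4 TPM to 4.88 and 4.98. The desmosome gene *Dsp* was lower (-1.68) and the water channel gene *Aqp3* higher (1.93).

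**Figure D2:**
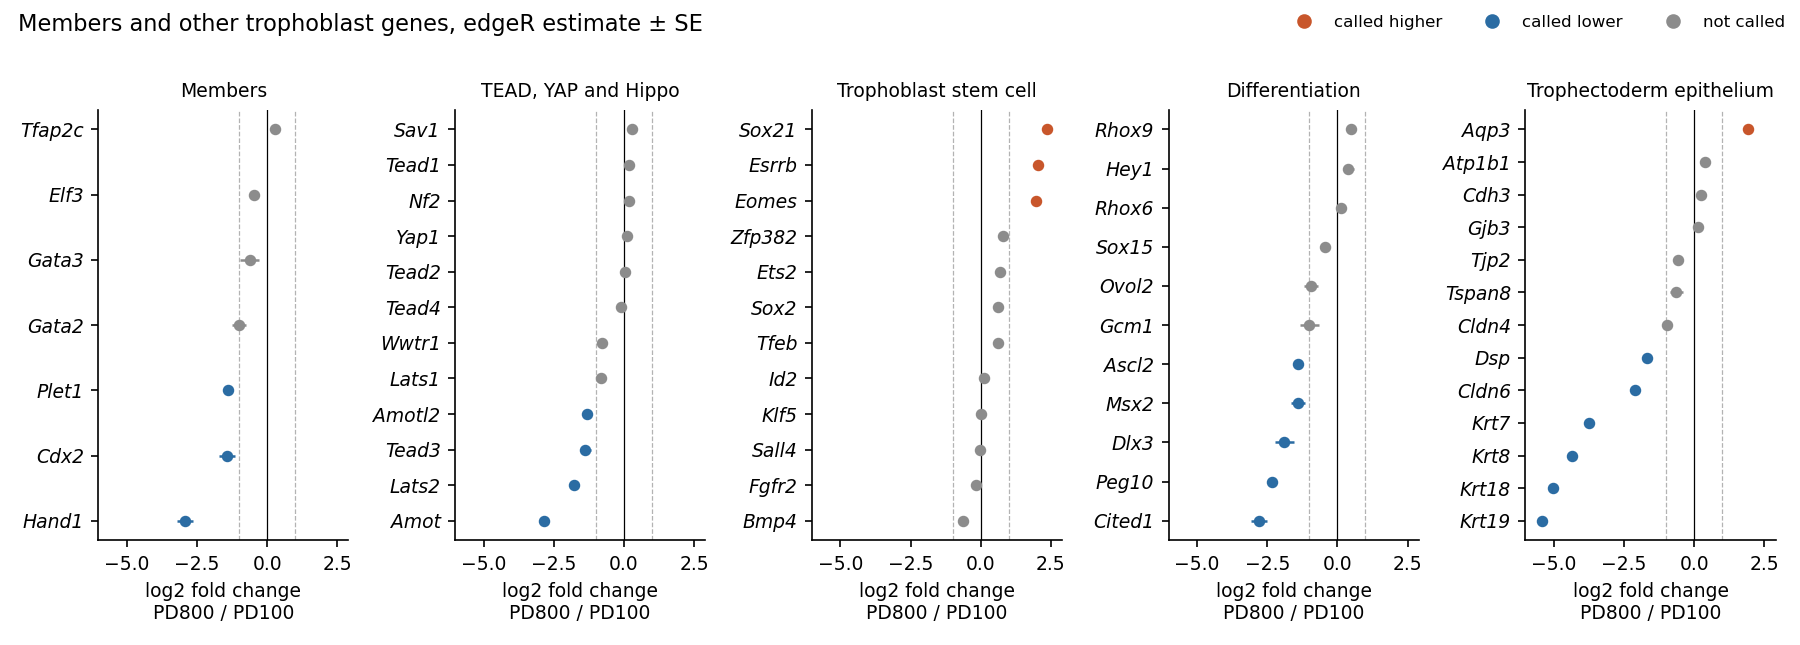
Fold changes (log2, PD800 over PD100) of the tested members and of 4 lists of trophoblast genes, as edgeR estimates with bars of 1 SE; dashed lines mark a fold change of 2. *Hand1*, *Cdx2* and *Plet1* lie at -2.92, -1.44 and -1.38, keratin genes reach -5.43, and *Eomes*, *Esrrb* and *Sox21* lie on the right at about 1.98 to 2.36.

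Several members belong to gene families whose other genes mark other lineages. Of 13 paralogues 8 were tested, 2 were called lower and none higher, with a median log2 fold change of -0.51. *Gata4* and *Gata6*, factors of the primitive endoderm, had log2 fold changes of -2.88 (SE 0.19) and -3.66 (SE 0.15). The lowest count of either in a PD100 library was 453. *Hand2*, the relative of *Hand1*, had expected counts of 4.45 and 6 at PD100 and of 6 and 5 at PD800 and was not tested. *Cdx1* was not called (0.68, SE 0.31), and *Elf2*, the paralogue of the highest mean TPM, was at 0.18, and at -0.01 on the TPM scale.

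Markers of other cell types also differed between the stages, and their part in the members' values was not tested. Primitive endoderm markers were called lower in 11 of 12 cases, with a median of -3.92 in log2 fold change, and a summed TPM of 290.3 and 315.6 at PD100 and of 16.9 and 17.1 at PD800. Their most abundant gene was the collagen gene *Col4a1*. *Lama1* had a log2 fold change of -2.76 and *Sox17* one of -6.03, and *Foxa2* had 230 and 147 expected counts at PD100 and 1 and 1 at PD800.

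Fibroblast markers, of interest because feeder fibroblasts served for maintaining the line, were called lower in 6 of 12 cases, with 11 tested and a median of -1.75. Their summed TPM, most of it *Vim*, was 131.3 and 155.8 at PD100 and 116.1 and 132.9 at PD800, values that overlap. *Vim* itself lay higher in both PD800 libraries by CPM (log2 fold change 0.45, edgeR adjusted p of 0.00635), below the fold threshold, while its TPM overlapped. *Col1a1* (-3.07), *Col3a1* (-2.52), *Thy1* (-1.75) and *Prrx1* (-1.67) were lower, the call of *Prrx1* being lost without either PD800 library (edgeR adjusted p of 0.0141 and 0.0119), those of *Thy1* and *Prrx1* with limma on either TPM scale and that of *Col3a1* on log2(TPM + 1), while *Lum* had a single count, in PD800 replicate 2.

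The members lie on separate chromosomes, except that *Gata3*, *Elf5* and *Tfap2c* share chromosome 2, far apart. Their neighbours were compared to see whether whole stretches moved with them. Around *Cdx2*, 124 other genes were tested within 5 Mb on either side. Their median log2 fold change was 0.35, and 5 of them (4.03%) were called lower and 16 (12.9%) higher, 13 of the latter among the 45 toward higher coordinates. *Cdx2* itself differed from that median by -1.79 on the log2 scale. Its nearest tested neighbours were *Pdx1* (0.99, SE 0.43) and *Gsx1* (-1.98, SE 0.62), which with *Cdx2* form the ParaHox cluster, and *Gm6054* (1.23, SE 0.45) and *Gm29793* (2.64, SE 0.56) on the other side. None of these was called in the main fit. *Gm29793*, with at most 17 counts, was called with no expression filter (edgeR adjusted p of 0.000329) and with the replicate block (0.00333). It was also called without PD100 replicate 1, where its log2 fold change moved to 3.72. The nearer end of *Flt1* lies 254.3 kb from *Cdx2*.

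Around *Hand1*, the 148 tested genes had a median of -0.40, and 23 (15.5%) were called lower and 3 (2.03%) higher, so the stretch as a whole lay below the median of all genes. *Hand1* was lower still, with a difference of -2.52 from that median. Next to it, *Larp1* was called lower (-1.20) and *Gm12245* higher (1.13, but 0.88 and 0.91 and not called on the 2 TPM scales), while *Sap30l* (-0.38) and *Galnt10* (-0.06) were not called. Around *Plet1*, the 87 tested genes had a median of 0.03 and 6 (6.9%) were called lower and 3 (3.45%) higher, and *Plet1* differed from the median by -1.41. Beside it, *Ncam1*, a gene for an adhesion molecule 695.6 kb away, was called higher (2.54), and *Pts* (0.74), *Bco2* (-0.33) and *Rpl10-ps3* (-0.31) were not called.

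*Tfap2c* sits in a stretch with many genes called higher. Of 99 tested genes within 5 Mb on either side 46 (46.5%) were called higher and none lower, with a median log2 fold change of 1.30, at a difference of -1.00 for *Tfap2c* itself. Most of the 46 lay in a run of genes, nearly all with *Gm* or *Zfp* symbols, at 175.01 to 177.50 Mb. RSEM divides reads that genes share, and the part of this in their values was not tested. Split at the gene after these values were seen, the 32 genes toward lower coordinates had a median of 0.23 and 4 calls, and the 67 toward higher coordinates a median of 1.65 and 42 calls. Those 4 calls all had midpoints at 172.35 to 172.41 Mb, close to *Tfap2c* at 172.55 Mb, so the calls did not begin at the gene itself. *Rae1* (1.39) was called higher beside it, and *Rtfdc1* (1.00), *Bmp7* (0.84) and *Gm14303* (-0.02) were not called, *Rtfdc1* passing without PD100 replicate 2 (1.13), without PD800 replicate 1 (1.04), with upper-quartile factors (1.01) and with the replicate block (1.004). *Tfap2c* thus had a smaller log2 fold change than most of its neighbours. *Tfap2c* and *Cdx2* lie 9.45 and 4.4 Mb before the last annotated base of their chromosomes. DNA copy number was not analysed here.

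The stretches around *Elf3*, *Gata2* and *Gata3* had medians of -0.09, 0.02 and 0.07. *Elf3* had as neighbours *Rnpep* (-0.95), *Gm26642* (-0.80), *Gm4204* (0.27) and *Arl8a* (-0.11). *Gata2* lay between *Rpn1* (-0.17) and *Rab7* (-0.09) on the left and *Eefsec* (0.02) and *Gm44265* (-0.43) on the right, and *Gata3* lay near *Gm13217* (0.22), *Taf3* (0.08) and *C630004M23Rik* (-0.29). None of these neighbours was called, with the exception that *Rnpep* passed without PD100 replicate 1 (log2 fold change -1.03) and with limma on log2(TPM + 0.1) (-1.09). Around the untested *Elf5* and *Tfap2a* the medians were 0.22 and 0.11.

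**Figure D3:**
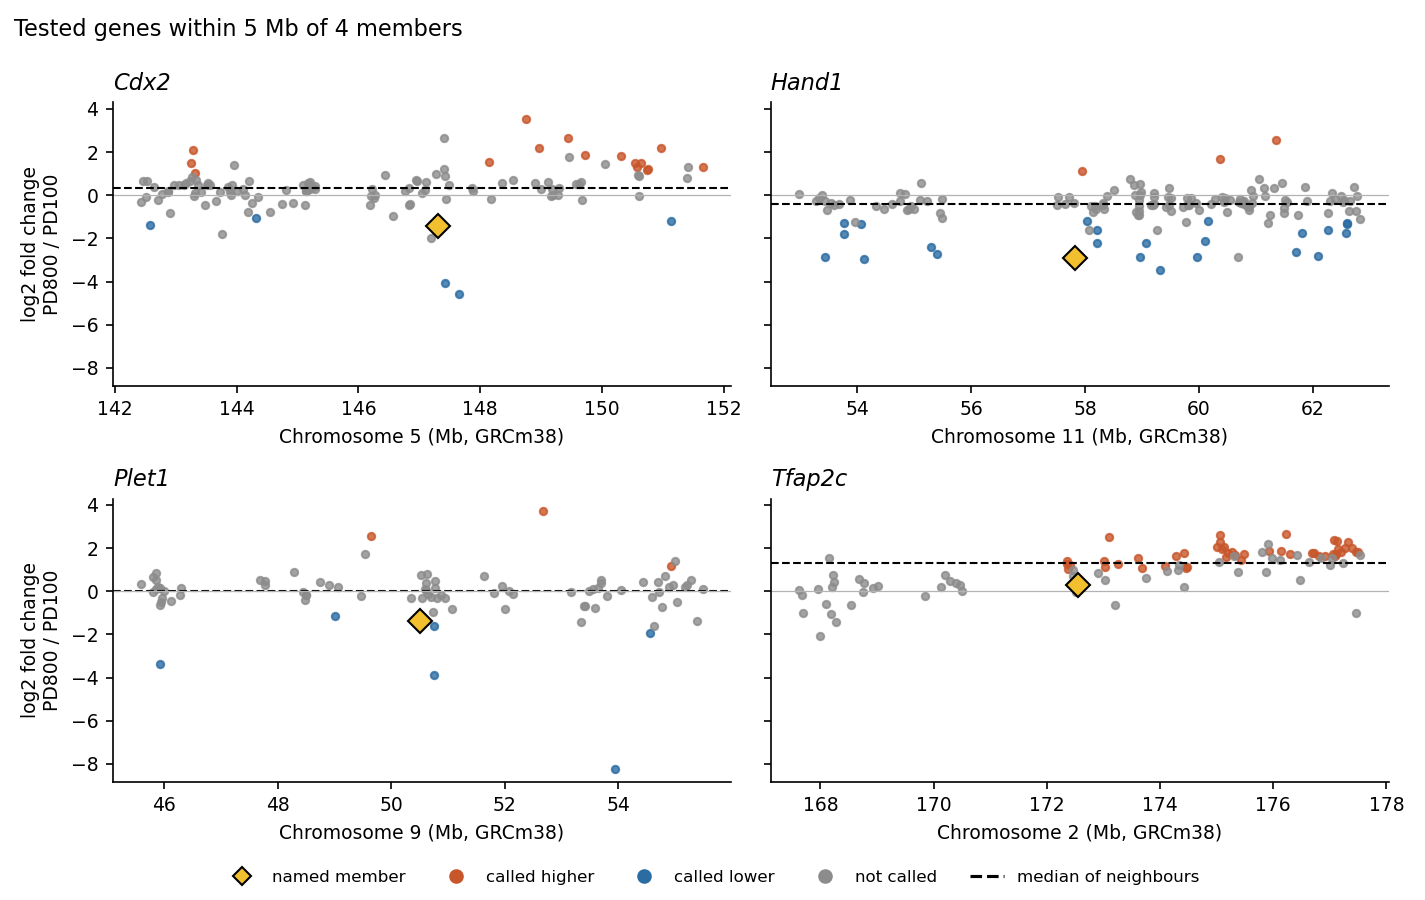
Fold changes (log2, PD800 over PD100) of tested genes within 5 Mb of *Cdx2*, *Hand1*, *Plet1* and *Tfap2c* against position on GRCm38, with the named member as a diamond and the median of its neighbours as a dashed line. *Cdx2*, *Hand1* and *Plet1* lie under their medians of 0.35, -0.40 and 0.03, and *Tfap2c*, at 0.30, lies under a median of 1.30, with most of the higher values on its right.

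*Plet1*, the called member of the highest mean CPM, was matched against all tested genes of at least 1 CPM by the root mean square difference of centred log2 CPM over the 4 libraries. The most alike were *Amotl2* (difference 0.0225), *Ifi30* (0.0232) and *Plin2* (0.0246). *Amotl2* stood at 129.5 and 128.6 CPM at PD100 and at 50.8 and 51.7 at PD800. Over 4 libraries in 2 stages such a likeness mainly measures similarity of fold change.

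The promoters of *Cdx2* and *Plet1* are shown because both genes were called lower and share a sequence element. RefSeq promoters of GRCm38.p6 were found for 7 of the 9 members (all but *Hand1* and *Tfap2c*), as 10 promoters, and the 250 bases before each start were searched on both strands for the octamer ATGCAAAT, which POU factors such as OCT4 are known to bind, the TEAD element GGAATG, the GATA element AGATAA, the AP-2 element GCCNNNGGC and TATAAA. The octamer was chosen after the promoters had been read. It was present in the promoters of *Cdx2*, *Plet1* and *Elf3*, against 1.6% of all 32851 promoters. It began 147 bases before the start in *Cdx2*, 148 bases before it in *Elf3* and, on the opposite strand, 73 bases before it in *Plet1*, while *Elf3* was not called. No match of these motifs overlapped another in these 3 promoters. Below, the octamer (in *Plet1* its reverse complement) is in capitals, and bases that GENCODE places within *Cdx2* are left out.
*Cdx2*, chr5:147307271-147307499, reverse strand: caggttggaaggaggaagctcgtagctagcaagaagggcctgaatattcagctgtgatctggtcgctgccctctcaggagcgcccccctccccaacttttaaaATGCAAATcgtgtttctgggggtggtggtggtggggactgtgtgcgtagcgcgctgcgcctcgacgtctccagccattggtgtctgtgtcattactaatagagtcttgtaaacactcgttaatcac
*Plet1*, chr9:50494275-50494524, forward strand: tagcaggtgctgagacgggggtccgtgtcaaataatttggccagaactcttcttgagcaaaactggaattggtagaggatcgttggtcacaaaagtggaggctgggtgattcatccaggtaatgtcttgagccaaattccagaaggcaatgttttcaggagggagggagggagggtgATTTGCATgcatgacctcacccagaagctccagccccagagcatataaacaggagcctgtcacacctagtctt

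The other elements were spread unevenly. The TEAD element was present in promoters of *Elf3*, *Elf5* and *Gata2*, against 12.6% of all promoters, and was not among the letters before *Cdx2*. The AP-2 element was present before the RefSeq starts of *Cdx2*, *Gata2* and *Gata3* (13.7% of all promoters), with 3 matches in *Gata3* and, in *Cdx2*, a match 16 to 8 bases before the start, among the bases left out above, TATAAA before *Plet1* (12.4%), and AGATAA, present in 9.99% of all promoters, in none of the 10. The *Plet1* promoter had 3 CpG dinucleotides in 250 bases and the *Cdx2* promoter 13, beside a median of 6 over all promoters. A match describes letters only, and binding was not measured.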

How the data were processed

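Bulk RNA of 4 libraries was analysed, 2 at PD100 and 2 at PD800, assigned to a stage by the doubling number that their labels give. The authors aligned reads to mm10 (STAR 2.5.3a, per the submitters' processing notes) and deposited the expected count of each gene from RSEM 1.3.0, unscaled for depth, with reads shared between genes divided. The authors also deposited TPM values, scaled for length and library. DESeq2 1.18.1 is named in the same notes. Of 53379 gene identifiers 53274 were found in GENCODE M21 (GRCm38), which gave coordinates. *Lats2* matched 2 identifiers and the one with counts was used.

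Expected counts were rounded and fitted with edgeR 4.0.16 in R 4.3.3 (TMM factors, filterByExpr at a minimum count of 10, quasi-likelihood test, Benjamini-Hochberg adjustment over 19148 genes). The procedure was tested on simulated data, with planted fold changes larger than those of *Cdx2* and *Plet1*, in genes of higher mean count than *Cdx2*. Smaller changes and genes of low counts were not covered by it. With 2 libraries a stage, an exact permutation test could not go below p = 0.333 (two-sided). Counts varied between replicates by more than sampling, with a chi-square per degree of freedom of 66.3 at PD100 and 10.2 at PD800. Alternatives were DESeq2 1.42.0, DESeq2 size factors, upper-quartile factors, no filter, the replicate number as a block, limma 3.58.1 on log2(TPM + 1) and log2(TPM + 0.1), each library left out (the lone library then assumed to vary like the others), and, for counts of calls, an adjusted p under 0.05 without a fold threshold.

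The members and lists were chosen with earlier results of these data known. Named besides the members were the 2 highest and 2 lowest log2 fold changes among each list's called genes. Each list's gene of highest mean TPM over both stages was named too. So were up to 2 tested neighbours within 1 Mb on each side of a tested member, and the 3 genes most like *Plet1*. Further genes, *Dlx3*, *Tead4*, *Yap1*, *Hand2*, *Cdx1*, *Pou5f1*, *Lum*, *Tpbpa*, *Prl3d1*, *Krt15*, *Grhl3* and the antisense genes, were named after their values were seen. *Dux* was not found by symbol. Strand was not analysed here.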

Additional observations from a re-analysis of the deposited data

How the results depend on the processing

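*Elf5* and *Tfap2a* had too few counts to pass the expression filter, and *Cdx2* and *Gata3* had the fewest counts of the tested members, at most 55 in any library. *Hand1* and *Plet1* were called lower in all 11 alternative analyses, with log2 fold changes of -3.41 to -1.29 and of -1.48 to -1.08, and *Cdx2* in 5 of 11, of -1.59 to -0.34. *Gata3*, *Elf3* and *Tfap2c* were called in none of the 11 and kept their direction, with log2 fold changes of -0.92 to -0.10, of -0.60 to -0.34 and of 0.058 to 0.36, and *Gata2* was called in 2, with -1.20 to -0.24. On the TPM scale the median over all tested genes was -0.12 (log2 fold change) with a pseudocount of 1 and -0.21 with one of 0.1, beside 0.01 in the edgeR fit, and the log2(TPM + pseudocount) scale understates the change of low genes.

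Genes called higher numbered 1202 and lower 1686. With limma on log2(TPM + 1) they were 297 and 920, and on log2(TPM + 0.1) 533 and 1779. At an adjusted p under 0.05 with no fold threshold in edgeR they were 4224 and 4515, and the members so counted were 1 higher and 5 lower. With 1 library left out, 880 to 1514 genes were called higher and 1274 to 1893 lower, and 0 members higher and 2 to 3 lower. The cause of these differences was not tested.

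With limma on log2(TPM + 1), calls of a lower level fell to 2 among the trophoblast differentiation factors (3 on log2(TPM + 0.1)), to 3 among the fibroblast markers, to 1 among the germ cell markers, to 2 among the 2-cell markers and to 0 among the mesoderm markers. Mesoderm markers called lower were 2 with no expression filter, with the replicate block and without PD100 replicate 2.

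The replicate numbers are not stated to mark a shared batch. Deviations of same-numbered libraries from their stage means correlated at 0.265 across genes. With the replicate block 1461 genes were called higher and 1956 lower, and 0 members higher and 4 lower, with *Gata2* added (edgeR adjusted p of 0.00817, in a range of 0.0026 to 0.126 over its alternatives).

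Of the named genes' fold changes under the alternatives, 934 kept their direction and their side of the threshold, 41 lost the call, 15 gained it and 22 changed sign, in 12 genes, none of them called. On log2(TPM + 1) the sign changed for *Nf2* (-0.19), *Elf2* (-0.0081), *Taf3* (-0.12), *Eefsec* (-0.21), *Yap1* (-0.11) and *Gm13217* (-0.0052), on log2(TPM + 0.1) for *Nf2* (-0.20), *Elf2* (-0.0088), *Taf3* (-0.18), *Eefsec* (-0.23) and *Yap1* (-0.11), and with the replicate block for *Gm14303* (0.0097). With 1 library left out, the ranges that crossed 0 were -0.031 to 0.18 for *Taf3*, -0.83 to 0.31 for *Bco2*, -0.086 to 0.11 for *Eefsec*, -0.61 to 0.031 for *Rpl10-ps3*, -0.011 to 0.59 for *Gm4204*, -0.45 to 0.63 for *Gm14303*, -0.24 to 0.78 for *Gm13217*, -0.58 to 0.011 for *C630004M23Rik* and -1.01 to 0.22 for *Gm44265*. The cause was not tested.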

Other observations

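Markers of further cell types were compared between PD100 and PD800, with log2 fold changes and calls as in the report. Surface epithelium markers were called lower in 6 of 10 cases, with 8 tested and a median of -2.69 (-2.25 with *Krt15*, at most 2 counts at PD800, held at the floor, whose call was lost in DESeq2 at an adjusted p of 0.0397, in limma on both TPM scales and without PD100 replicate 2 or either PD800 library). Their summed TPM was 216 and 206.8 at PD100 and 73.1 and 68 at PD800, led by *Cdh1*, and *Krt14* (-4.16), *Grhl2* (-3.52), *Sfn* (-2.31) and *Epcam* (-1.85) were called lower. *Grhl3* lay higher (0.99, edgeR adjusted p of 0.000302), just under the fold threshold, which it passed with upper-quartile factors (1.003), without PD100 replicate 1 (1.01) and without PD800 replicate 2 (1.02).

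Mesoderm and primitive streak markers were low throughout, with a summed TPM of 2.24 and 1.68 at PD100 and of 3.15 and 2.71 at PD800. Of 10 listed and 7 tested genes, *Eomes* and *Gsc* (3.57) were called higher and *Kdr* (-1.81) lower, with a median of -0.87, but on log2(TPM + 1) none of these 3 was called (0.81, 0.65 and -0.31). *Gsc* had 1 and 6 expected counts at PD100 and 39 and 41 at PD800. PD100 replicate 1 lay under the floor of 3 counts, so the size of the *Gsc* fold change is uncertain. Germ cell markers, of interest because *Tfap2c* acts in germ cells, were called higher in 3 and lower in 2 of 9 cases, with a median of 0.19 and a summed TPM of 76.2 and 75.6 at PD100 and of 88 and 83.8 at PD800, led by *Itga6*. *Prdm14* (2.57) and *Dazl* (2.33) were higher, and *Prdm1* (-1.64) and *Dppa3* (-2.17) lower, *Prdm1* not being called on log2(TPM + 1) (-0.80). Of the 11 markers of the 2-cell state, 6 were called lower and 2 higher among 8 tested (2 lower with limma on log2(TPM + 1) and 5 with DESeq2), with a median of -4.83 (-4.26 with 4 genes at or near 0 at PD800 held at the floor). *Tcstv3* and *Tcstv1* were higher (5.24 and 6.40). *Tcstv3* was the most abundant at PD800 (20.17 and 11.99 TPM). At PD100 it had 0.6 and 0.59 TPM, below *Zscan4f* with 3.14 and 2.04. *Zscan4f* had 224.1 and 140.5 expected counts at PD100 and 1.57 and 0 at PD800. *Usp17la* had 18 and 12.22 and then 0 and 0, at least 4.59-fold lower. The *Usp17la* call was lost without PD800 replicate 1 and with limma on log2(TPM + 1) (adjusted p of 0.0279). The summed TPM of that list was 7.94 and 5.73 at PD100 and 28.1 and 17.6 at PD800, and without *Tcstv1* and *Tcstv3* it was 7.2 and 5.01 and then 0.12 and 0.07. Several genes of the list, among them the *Zscan4* and *Tcstv* genes, have near-identical copies between which reads are divided.

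Both *Tcstv3* and *Tcstv1* are tied by position to mTALT, a region of the same chromosome whose copy number the study set out to measure. *Tcstv3* lies inside it, and *Tcstv1* lies in a region described in the study's methods as holding partial duplicates of it. The part of this in their values was not tested.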
